A study of Homo sapiens with 6 samples.

Results

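The genes described are PUS10 and 9 other pseudouridine synthase genes, PUS1, PUS3, PUS7, PUS7L, TRUB1, TRUB2, RPUSD1, RPUSD2 and RPUSD4, found by Entrez ID among the 28395 gene rows of the count table. All 10 had a row, and all 10 were among the 13373 genes with enough counts to be tested. PUS10 was selected on its adjusted p of 0.0393 in these same libraries (edgeR's quasi-likelihood test with Benjamini-Hochberg adjustment), so its difference is given as a description. The other 9 were chosen for their enzyme class. RNA came from TC28a2, an established human chondrocyte line, 48 hours after transfection with a control vector (3 libraries) or with an FAP overexpression vector (3 libraries). FAP is fibroblast activation protein, a membrane serine protease. Sequencing used DRUG-seq, in which many samples are barcoded and sequenced together. The promoter of the vectors is not given in the sources used here, nor whether the replicates were separate cultures, so p-values measure only how these 6 libraries varied, which may be technical variation.

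Pseudouridine is an isomer of uridine in which the base is joined to the sugar through carbon instead of nitrogen, and it is made after transcription by pseudouridine synthases. Most of these enzymes recognise their sites alone, while dyskerin (DKC1) is directed by H/ACA guide RNAs within a protein complex. The modification is most abundant in tRNA, ribosomal RNA and small nuclear RNA, where it stabilises structure, and it is also found in mRNA. PUS10 acts on the T arm of some tRNAs, takes part in the processing of microRNA precursors in the nucleus, and was first described in human cells as a factor of apoptosis induced by TRAIL.

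The 6 libraries held 5736056 to 13839743 gene counts. FAP RNA had 0, 11 and 5 counts in control replicates 1 to 3 and 1396, 3182 and 4733 in FAP replicates 1 to 3, so every library matched its label. The counts do not separate vector transcripts from the cells' own. One library stood apart: FAP replicate 3 differed from the other FAP libraries by a chi-square over its degrees of freedom of 16.2 and 15.5, against 5.74 between those libraries and 5.21 to 6.78 between controls. Of 10 chondrocyte markers, SOX9 was at 22.6 to 42.6 CPM (CPM is a gene's count relative to the scaled total of its library), and the defining matrix genes ACAN and COL2A1 reached at most 1.64 and 0.548 CPM. COL1A1 (434 to 733 CPM), KRT8 and KRT18 were high in both groups. Summed levels of the fibroblast markers were 586 to 849 CPM in controls and 751 to 900 CPM in FAP libraries, mostly from COL1A1. COL1A2, PDGFRB and THY1 were at 32.0 to 72.5 CPM, while DCN, LUM and PDGFRA reached at most 1.60, 2.06 and 3.83 CPM. Summed levels of the epithelial markers were 1313 to 1507 and 1408 to 1540 CPM, nearly all from KRT8 and KRT18. EPCAM was at most 0.638 and CDH1 at most 0.437 CPM. The immune markers summed to 16.1 to 17.9 and 15.8 to 18.3 CPM. Endothelial markers summed to under 1 CPM in controls (0.731 to 0.983) and to 1.84 to 2.55 CPM in FAP libraries, with CDH5 at 0 in all 6. The difference came mainly from PECAM1, with 1, 4 and 9 counts in controls and 12, 20 and 24 in FAP libraries. PECAM1 was not called (adjusted p = 0.293, edgeR), and VWF and KDR had at most 6 and 2 counts. The part of these marker levels in the results was not tested.

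PUS10 (Entrez 150962) spans chromosome 2, 60940223 to 61018259, on the minus strand of GRCh38. RefSeq gives it 4 starts, spread over 1047 bases, and the starts face PEX13, a peroxisomal import gene on the plus strand whose span shares 540 bases with that of PUS10. The 250 bases before an outer and an inner start are printed because PUS10 is the called gene of the set and shares this region with PEX13. The sequences are from RefSeq (GRCh38.p14, minus strand, 5′ to 3′), with capitals for matches to the motifs searched.
PUS10 outer start, chr2:61018256-61018505: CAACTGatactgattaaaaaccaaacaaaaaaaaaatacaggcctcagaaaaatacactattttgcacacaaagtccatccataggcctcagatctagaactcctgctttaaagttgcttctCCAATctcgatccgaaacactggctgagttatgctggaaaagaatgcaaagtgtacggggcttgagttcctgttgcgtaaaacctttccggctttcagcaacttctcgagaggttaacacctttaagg
PUS10 inner start, chr2:61017432-61017681: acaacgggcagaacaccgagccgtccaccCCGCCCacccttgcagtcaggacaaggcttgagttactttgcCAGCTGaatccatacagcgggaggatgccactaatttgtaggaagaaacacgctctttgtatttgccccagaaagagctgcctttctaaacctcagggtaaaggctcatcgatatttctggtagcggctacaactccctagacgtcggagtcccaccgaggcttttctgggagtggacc
The capitals in the first are a CCAAT box (CCAAT) and an E-box (CANNTG), and those in the second a GC box (GGGCGG, here on the other strand) and an E-box. Of the inner window, 212 bases also lie in the 250 bases before the PEX13 start.

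PUS10 had the highest level of the 10 genes, in CPM and per kilobase, and was higher in FAP libraries. Its level in CPM, scaled by TMM (trimmed mean of M values), was 82.6, 81.7 and 90.0 in control replicates 1 to 3. In FAP replicates 1 to 3 it was 138, 118 and 111 CPM. All 3 FAP libraries lay above all 3 controls, and FAP replicate 1 was the highest. These levels rest on 452, 748 and 1137 counts in controls and 867, 1666 and 1494 counts in FAP libraries, and counting error alone is 4.70% at the lowest of these. Group means were 84.8 ± 4.55 and 122 ± 14.4 CPM (SD, n = 3 each). The log2 fold change of FAP minus control was 0.52 (SE 0.11, 95% interval 0.30 to 0.74), or 1.44-fold. In bulk RNA, more RNA per cell and more cells with the RNA cannot be told apart. Among FAP libraries, FAP RNA was at 223, 225 and 351 CPM in replicates 1 to 3, so the library with the most FAP RNA had the least PUS10 RNA of the 3. That library, replicate 3, is also the library that stood apart, and a relation between FAP and PUS10 levels was not tested.

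The PUS10 call depended on single libraries. By p it ranked 27 among the 30 genes called (0.224% of those tested), and 13 were called higher (0.0972%). Without FAP replicate 3, the library that stood apart, the log2 fold change was 0.59 (adjusted p = 2.52e-04, edgeR), and 248 genes were called (1.86%). Without FAP replicate 1 it was 0.43 (adjusted p = 0.101, 0.274% of genes called). Leaving out FAP replicate 2 or control replicate 1, 2 or 3 gave 0.55, 0.50, 0.50 and 0.57 (adjusted p = 0.155, 0.280, 0.352 and 0.232), with 0.0449%, 0.0288%, 0.0505% and 0.0225% of genes called. PUS10 was called with a replicate block (0.329% of genes called), with no low-count filter (0.718%), with counts thinned in 2 random draws (0.147% and 0.171%) and with DESeq2 (0.613%). The plot of PUS10 under each setting shows the same sign throughout.

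**Figure D1:**
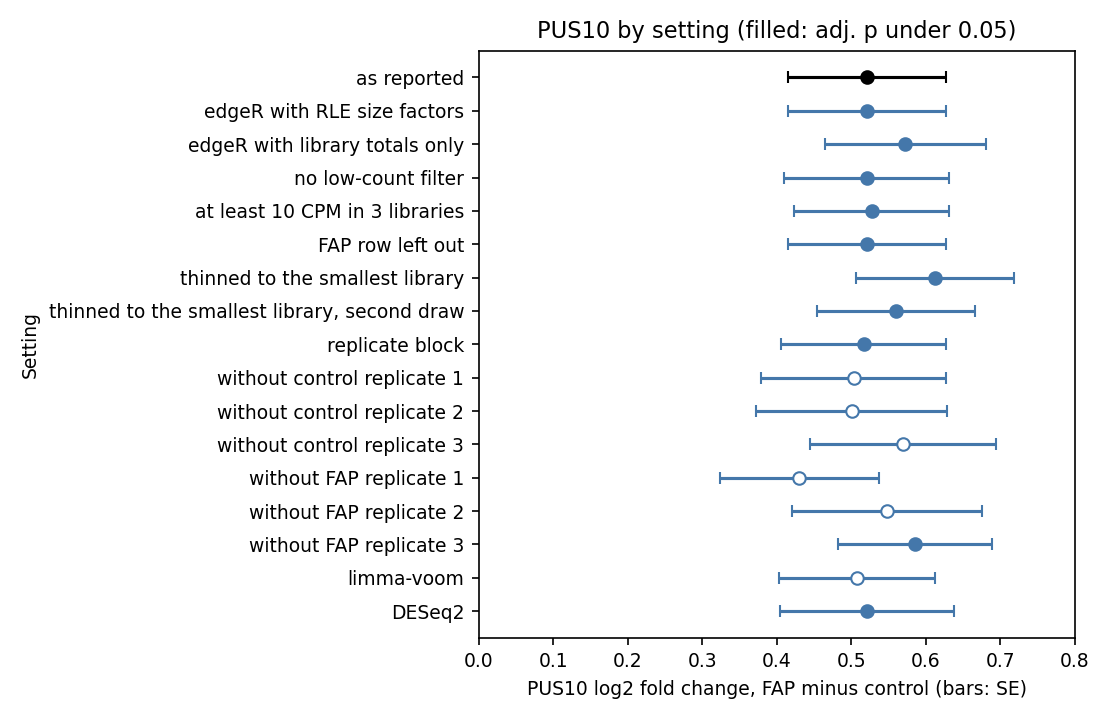
PUS10 log2 fold change, FAP minus control (x axis, bars ± SE), under the reported fit and 16 other settings (y axis), with filled points where the adjusted p was under 0.05. Values run from 0.43 to 0.61, and the call was lost in 5 of the 6 fits that leave out a library and with limma-voom.

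On GRCh38, the spans in RefSeq are PUS1 on chromosome 12 (131929276 to 131945896, plus strand), PUS3 on chromosome 11 (125893485 to 125903206, minus strand), PUS7 on chromosome 7 (105456501 to 105522271, minus strand), PUS7L on chromosome 12 (43718992 to 43758790, minus strand) and TRUB1 on chromosome 10 (114938195 to 114977676, plus strand). The others are TRUB2 on chromosome 9 (128305159 to 128322447, minus strand), RPUSD1 on chromosome 16 (784974 to 788381, minus strand), RPUSD2 on chromosome 15 (40569299 to 40574949, plus strand) and RPUSD4 on chromosome 11 (126202096 to 126211650, minus strand). 

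None of the other 9 synthases was called (edgeR, smallest adjusted p = 0.616), against 0.224% of all genes tested. None had an unadjusted p under 0.05, against 9.91% of all genes tested. Their log2 fold changes ran from -0.23 to 0.11, with 3 positive and 6 negative and a median of -0.07, beside a median of 0.00 over all genes tested. With PUS10 the median of the 10 was -0.06. A p that misses the threshold does not show that a gene was unchanged: the 95% intervals of the 9 reach from -0.52 at the lowest to 0.32 at the highest. Among the 9, the groups did not overlap for RPUSD1 alone, which was higher in FAP libraries, and they did not overlap for 16.0% of genes tested (7.96% higher and 7.99% lower). They did not overlap for PUS10 either, which its selection on this contrast favoured.

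**Figure D2:**
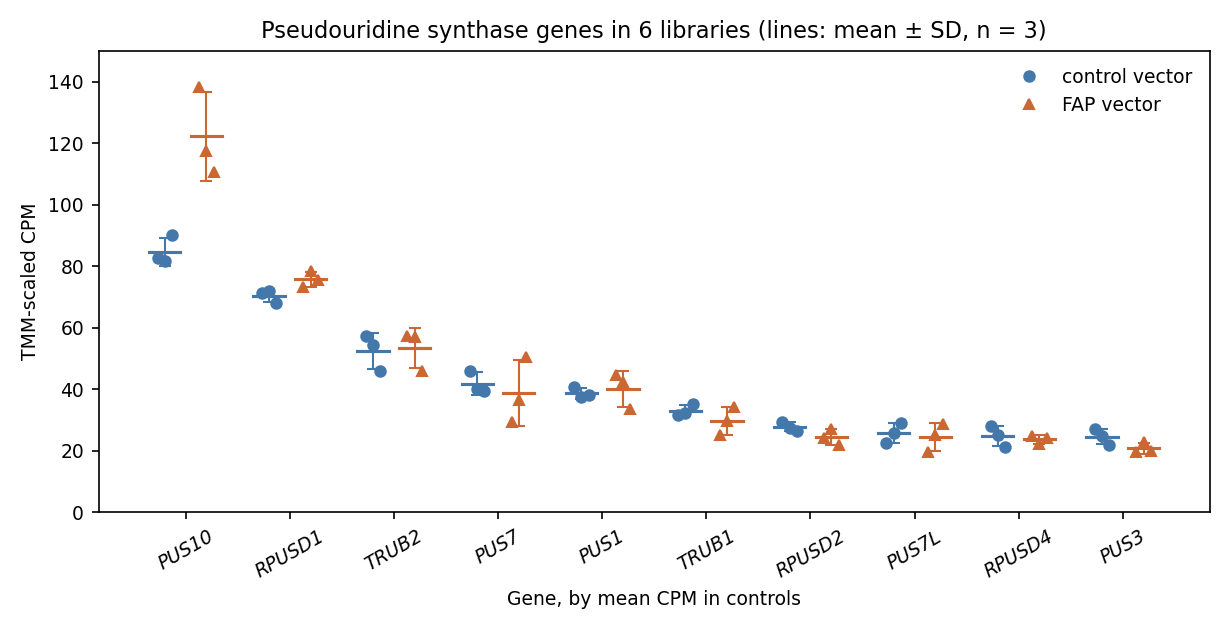
TMM-scaled CPM (y axis) of the 10 synthase genes (x axis, by mean in controls) in each of 3 control libraries (circles) and 3 FAP libraries (triangles), with lines for mean ± SD. PUS10 has the widest gap between groups, 81.7 to 90.0 CPM in controls and 111 to 138 CPM in FAP libraries.

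PUS1 modifies tRNAs in the nucleus and mitochondria and is mutated in a myopathy with sideroblastic anaemia. It was at 40.7, 37.5 and 38.0 CPM in controls and 44.5, 42.2 and 33.6 CPM in FAP libraries. FAP replicate 3 lay below all controls and the other FAP libraries above them. The log2 fold change was 0.05 (SE 0.13), and 0.16 without FAP replicate 3.

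PUS3, which modifies the anticodon stem and loop of tRNAs, had the lowest log2 fold change of the 10. It was at 27.0, 24.8 and 22.0 CPM in controls and 19.5, 22.8 and 20.0 CPM in FAP libraries. FAP replicate 2 overlapped the lowest control, and the log2 fold change was -0.23 (SE 0.14, 95% interval -0.52 to 0.06). Its span shares 7162 bases with that of HYLS1, a ciliary gene on the other strand, which was at 4.52 to 7.82 CPM. Use of strand in counting is not known, so reads from these shared bases cannot be told apart by strand.

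PUS7, which modifies tRNAs, small nuclear RNA and mRNA, varied most between FAP libraries. It was at 46.0, 40.2 and 39.3 CPM in controls and at 29.4, 36.4 and 50.5 CPM in FAP replicates 1 to 3, a coefficient of variation of 27.7% against 8.70% in controls. FAP replicates 1 and 2 lay below all controls and FAP replicate 3 above them. The log2 fold change was -0.09 (SE 0.15) with all libraries, -0.32 without FAP replicate 3 and 0.06 without FAP replicate 1.

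PUS7L, the paralogue of PUS7, was at 22.6, 25.8 and 29.0 CPM in controls and 19.6, 25.2 and 28.7 CPM with FAP. TRUB1, which modifies the T arm of tRNAs and some mRNAs, was at 31.8, 32.2 and 35.1 CPM and at 25.1, 29.8 and 34.3 CPM. In PUS3, PUS7, PUS7L and TRUB1 alike, FAP replicate 1 was the lowest of the 6 libraries. It was the highest for PUS10, PUS1 and, narrowly, TRUB2. The log2 fold changes of PUS7L and TRUB1 were -0.07 and -0.14 (SE 0.15 and 0.13).

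RPUSD1, a member of the RluA-like family, had the next highest CPM after PUS10 and the smallest coefficients of variation. It was at 71.2, 71.9 and 67.9 CPM in controls and at 73.2, 78.3 and 75.5 CPM in FAP libraries, at 3.03% and 3.32%. The groups did not overlap, but the log2 fold change was 0.11 (SE 0.10, 95% interval -0.10 to 0.32, adjusted p = 0.758, edgeR). RPUSD2, of the same family, was at 29.4, 27.5 and 26.6 CPM in controls and at 24.3, 27.2 and 21.9 CPM in FAP libraries. FAP replicate 2 lay among the controls and the other FAP libraries below them, and the log2 fold change was -0.18 (SE 0.13).

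The mitochondrial enzymes of the set besides PUS1 also showed no called difference. TRUB2, which acts on mitochondrial mRNA, was at 57.4, 54.3 and 45.9 CPM in controls and at 57.4, 56.9 and 45.9 CPM in FAP libraries (0.03 on the log2 scale, SE 0.12). RPUSD4, which modifies the large mitochondrial ribosomal RNA, was at 27.9, 25.0 and 21.4 CPM and at 24.7, 22.2 and 24.2 CPM (-0.05, SE 0.14). For both genes the groups overlapped. The mitochondrial module that contains them also holds RPUSD3, NGRN, RCC1L and FASTKD2. The log2 fold changes of those 4 were 0.16, 0.14, 0.08 and -0.01. None of the module's 6 genes was called (smallest adjusted p = 0.740, edgeR), against 0.224% of all genes tested.

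The share of PUS10 in the summed CPM of the 10 genes was 18.9%, 19.4% and 21.7% in controls and 30.3%, 25.6% and 24.9% in FAP libraries. The summed CPM of the 9 others was 340 ± 14.5 in controls and 331 ± 12.0 in FAP libraries (SD, n = 3 each). These sums are relative to all counts of a library and do not correct for transcript length.

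Levels of different genes were compared per kilobase of the longest transcript in GENCODE's basic set. On this scale control levels were 37.2 ± 2.00 CPM per kilobase for PUS10 and 32.6 ± 0.988 for RPUSD1 (SD, n = 3), and the 3 control libraries of these genes did not overlap. Next came PUS3 (13.4), PUS7 (12.0), RPUSD2 (11.8), RPUSD4 (9.86), TRUB1 (9.70), PUS1 (9.46) and TRUB2 (9.18), and PUS7L was last at 1.90. Adjacent genes in that order had overlapping control libraries, apart from PUS10 over RPUSD1, RPUSD1 over PUS3, RPUSD2 over RPUSD4, and TRUB2 over PUS7L. This order depends on the transcript taken. With the shortest basic transcript of each gene, PUS10 was again first (69.1), PUS1 moved to the second place (46.2), above RPUSD1 (38.3), and PUS7L, whose longest transcript has 13593 bases, was at 13.8. DRUG-seq as generally described counts transcript ends, in which case division by length would not apply. By CPM alone PUS10 was also first, at the 82.4 percentile of tested genes in controls, and PUS3 was last, at the 55.3 percentile.

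The 3 synthases outside the set, PUSL1, DKC1 and RPUSD3, had log2 fold changes of 0.23, -0.14 and 0.16 (SE 0.16, 0.11 and 0.15), and none was called. Dyskerin RNA was at 481, 407 and 425 CPM in controls and 357, 393 and 440 CPM in FAP libraries, with FAP replicate 3 among the controls. Of the 6 H/ACA genes, 5 were negative (median -0.13) and 0 were called, against 0.224% of all genes tested. NOP10, a core subunit, was at 235, 231 and 228 CPM in controls and at 202, 188 and 203 CPM in FAP libraries, which did not overlap. Its difference was -0.23 on the log2 scale (SE 0.09, adjusted p = 0.423, edgeR). The core subunits NHP2 and GAR1 were at -0.10 and -0.11. The assembly factors NAF1 and SHQ1 were at -0.21 and 0.27, and the FAP libraries of SHQ1 lay above all controls.

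**Figure D3:**
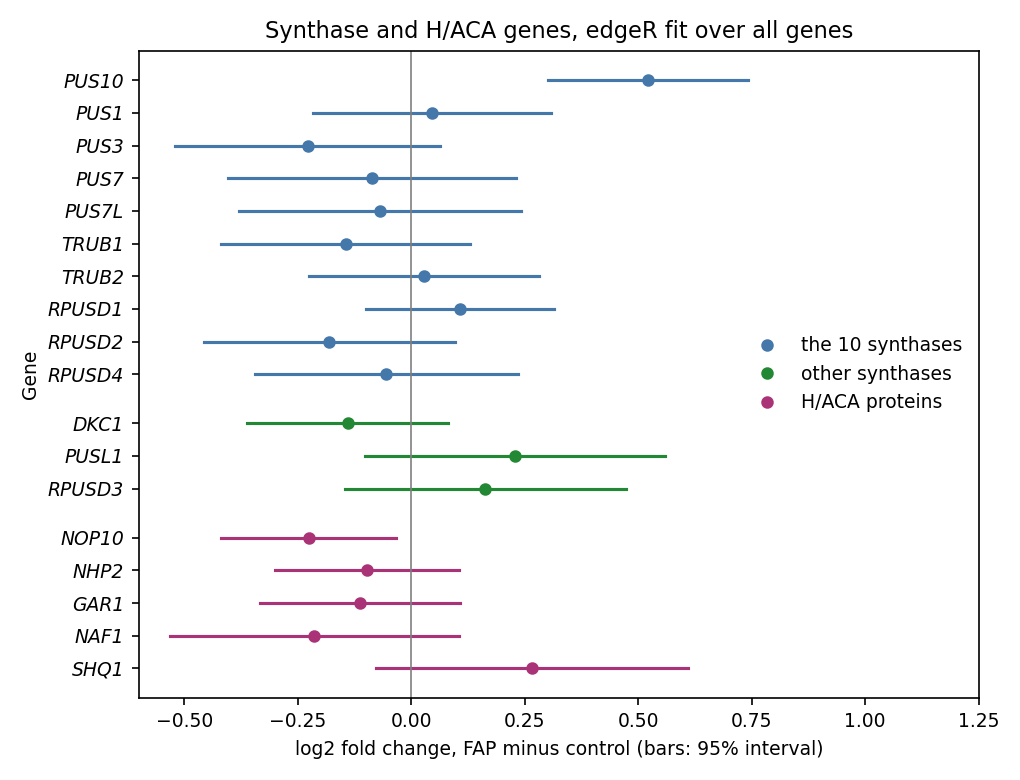
Log2 fold change, FAP minus control (x axis, points with 95% intervals), of the 10 synthases, 3 further synthases and 5 H/ACA proteins (y axis), from the edgeR fit over all genes. The intervals of PUS10 (0.30 to 0.74) and NOP10 (-0.42 to -0.03) do not reach 0, and all others do.

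No gene was called in the 3 wider lists tied to these enzymes, against 0.224% of all genes tested. Of 49 tested genes for other tRNA modifications, 17 were positive and 32 negative (median -0.08), and 2 had an unadjusted p under 0.05, against 9.91% of all genes tested. QTRT1, the catalytic subunit of the queuosine transglycosylase, was at 1.64, 3.39 and 2.69 CPM in controls and at 16.0, 5.58 and 4.45 CPM with FAP, with 9 counts in the lowest library. Its difference was 1.61 on the log2 scale (SE 0.41, adjusted p = 0.131, edgeR, or 0.0192 with DESeq2). All 3 FAP libraries lay above the controls, and FAP replicate 1 was far above the rest; without it the value was 0.91, and without FAP replicate 3 it was 1.93 (adjusted p = 2.64e-04, edgeR). TRMT6, of the tRNA adenosine methyltransferase, was at -0.29 (SE 0.12, adjusted p = 0.427), with FAP libraries below all controls. Of 14 microRNA processing genes, 10 were positive (median 0.04), with AGO3 at 0.50 and XPO5, the exporter of microRNA precursors, at -0.15 (adjusted p = 0.491 and 0.662). Of 16 TRAIL apoptosis genes tested, 11 were negative (median -0.12, or -0.05 without FAP replicate 3), with XIAP, a caspase inhibitor, at 0.23 and XPO1 at 0.15 (adjusted p = 0.527 and 0.616). Over all genes tested, 50.7% were positive.

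**Figure D4:**
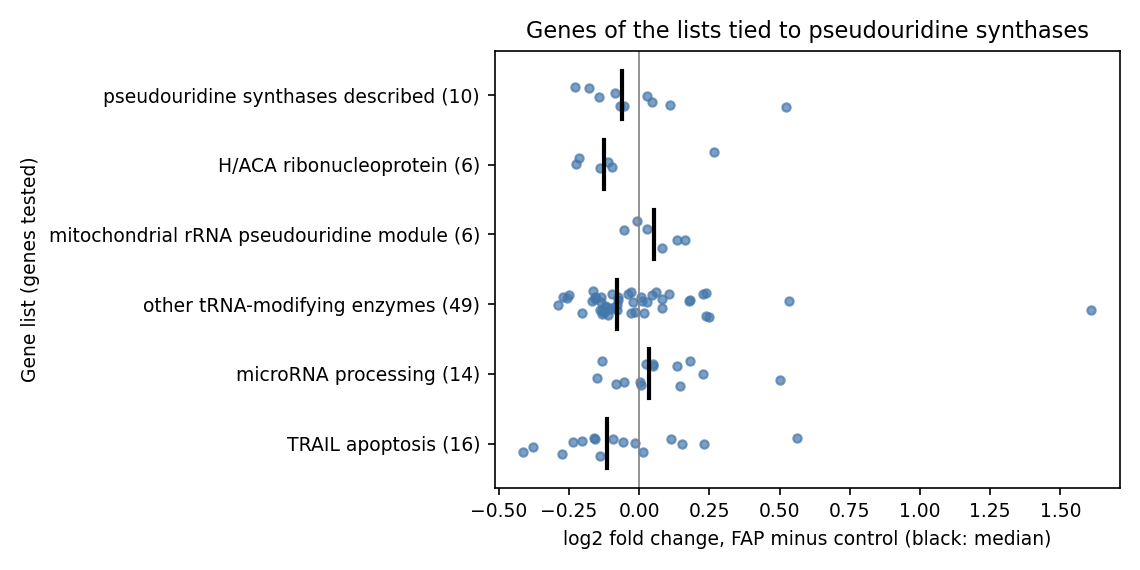
Log2 fold change, FAP minus control (x axis), of each tested gene in 6 lists (y axis, number tested in brackets), with black lines for medians. PUS10 is the point at 0.52 among the 10 synthases (top row), and QTRT1 the point at 1.61.

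None of the tested genes around PUS10 on chromosome 2 was called, against 0.224% of all genes tested. Of genes with any part within 500 kb of the PUS10 span, 10 others were tested, with log2 fold changes of -0.12 to 0.39. PEX13 was at 12.4, 17.4 and 17.5 CPM in controls and at 16.4, 11.9 and 16.2 CPM with FAP. The groups overlapped (-0.12 on the log2 scale, SE 0.18, 95% interval -0.49 to 0.25). Whether counting used strand is not known, so reads from the shared 540 bases cannot be told apart by strand. REL, an NF-kB subunit on the other side of PUS10, was at 0.02 (SE 0.20). PAPOLG, a poly(A) polymerase, was at 0.39 (SE 0.22), and 0.14 without FAP replicate 3. SANBR, AHSA2P, USP34 and XPO1 were at 0.13, 0.22, 0.02 and 0.15.

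**Figure D5:**
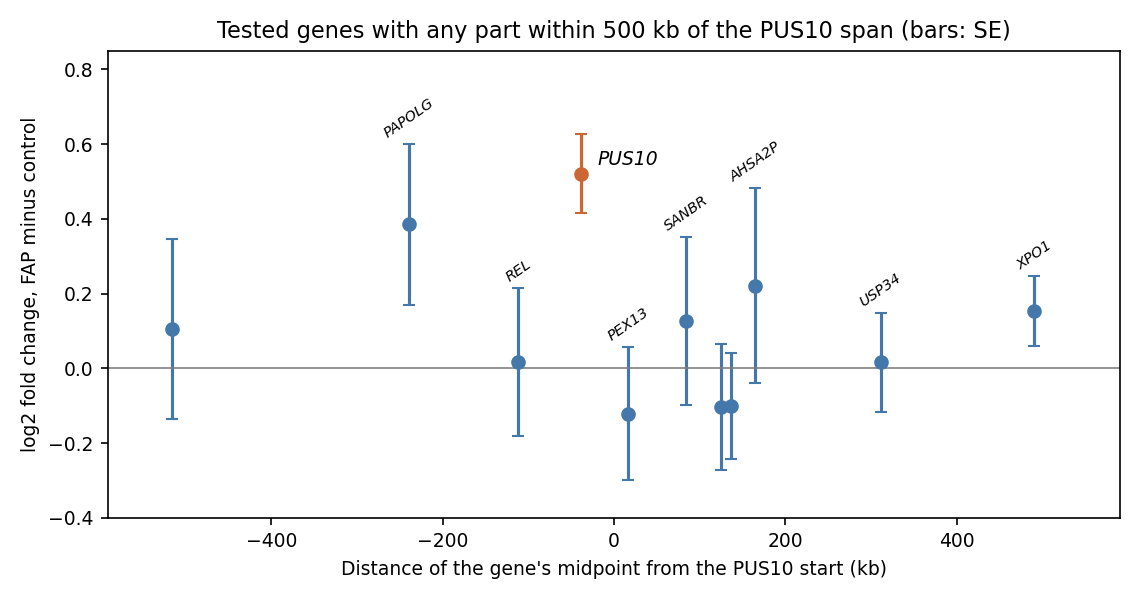
Log2 fold change, FAP minus control (y axis, bars ± SE), against the distance of each gene's midpoint from the PUS10 start in kb (x axis), for PUS10 and 10 tested genes with any part within 500 kb of its span, with labels for genes named in the text. PUS10 is at 0.52, and the other genes lie between -0.12 and 0.39.

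A head-to-head neighbour, a gene on the opposite strand that starts within 1 kb (a search added after values were seen), was present for 6 of the 10 synthases (60%), against 23.4% of 13019 tested genes with a known strand. The pairs were PUS10 with PEX13, PUS3 with DDX25, PUS7L with IRAK4, TRUB2 with COQ4, RPUSD1 with CHTF18, and RPUSD4 with FAM118B. DDX25 had too few counts to be tested. CHTF18, of an alternative clamp loader of DNA replication, was at 48.6, 55.0 and 45.4 CPM in controls and at 37.5, 37.5 and 37.9 CPM in FAP libraries. These did not overlap (log2 fold change -0.40, SE 0.11, adjusted p = 0.218, edgeR), whereas the value of its pair RPUSD1 was 0.11. COQ4, of coenzyme Q synthesis, was likewise lower in all FAP libraries (-0.28, SE 0.12, adjusted p = 0.461), beside 0.03 for TRUB2. Of all genes tested, 7.99% were lower in FAP libraries without overlap of the groups. For PEX13, FAM118B and IRAK4 the groups overlapped. FAM118B and IRAK4 were at -0.32 and 0.24, neither called.

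RefSeq promoter windows were found for 8 of the 10 synthases, not for PUS1 and PUS7L, giving 12 windows of 250 bases before a start. The outer PUS10 window printed above has a GC content of 41.2% with 6 CpG and the inner one 53.6% with 11 CpG, while the window of the innermost start (chr2:61017213-61017462) has 54% with 14 CpG and no match to the motifs searched. The medians over all 35116 windows are 58% and 11. The RPUSD1 window has 83.2% with 41 CpG. Searched on both strands, a GC box was present for 5 of the 8 genes (6 of 12 windows, against 42.6% of all windows) and a CCAAT box for PUS10 and RPUSD1 (3 of 12 windows, against 32.0%). An E-box of any kind was present for PUS10, TRUB2 and RPUSD4 (6 of 12, against 61.8%). Its form CACGTG, which is also counted as an E-box, occurred 3 times before RPUSD4 and in no other of the 12 windows (6.34% of all windows). An ETS core (CGGAAG) was present for TRUB2 and RPUSD1 (3 of 12, against 16.5%), a TATA box (TATAAA) for TRUB2 and RPUSD2 (2 of 12, against 10.7%), and a YY1 core (ATGGCGG) for TRUB2 (1 of 12, against 2.88%). An NRF1 core (GCATGCG) was in 0 of 12, against 3.39%. These matches describe letters only and not binding. Some windows of the same gene overlap, so counts of windows are not counts of separate sites. The outer PUS10 window printed above overlaps another (chr2:61018260-61018509) that holds the same CCAAT box and E-box.

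The genes most like PUS10 across the 6 libraries, by Pearson correlation of log2 CPM among 8583 genes whose mean reached 10 CPM, were MKRN2 (0.998), CAMLG (0.995), ABHD17A (0.992), PTMS (0.989) and SLC71A1 (0.988). In all 5 every FAP library lay above every control (7.96% of all genes tested), which follows from their choice by likeness to PUS10. PTMS, parathymosin, was the only one of these called (log2 fold change 0.78), and MKRN2, a zinc finger gene, was at 17.2 ± 0.322 CPM in controls and 19.2 ± 0.653 CPM with FAP (SD, n = 3 each). A total of 49 genes had a correlation over 0.95. After subtraction of group means, which removes the difference between vectors, the most alike were POLE2 (0.999), BCL10 (0.998), YBEY (0.995), USO1 (0.992) and MAD2L1 (0.990), and 94 genes were over 0.95, 13 of them on both measures. In these 5 the highest FAP library was replicate 1, as for PUS10, which their choice by likeness to PUS10 favoured. With only 6 libraries, which differ in depth and composition, such values are descriptive. None of the other synthases was among them: over the 6 libraries their correlations with PUS10 ran from -0.82 (PUS3) to 0.60 (RPUSD1), and after group means from -0.87 (PUS7) to 0.68 (PUS1).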

How the data were processed

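The authors deposited whole-number read counts per Entrez gene ID for 6 libraries, not normalized. HISAT2, featureCounts, Subread and GRCh38 are named in the submitters' processing notes; versions, strandedness, treatment of reads with several alignments and any collapsing by molecular identifier were not given in the sources used here, so error from counting covers that alone. Of 28395 IDs, 27745 matched a RefSeq symbol (GRCh38.p14).

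Counts were fitted with edgeR 4.0.16 in R 4.3.3 (TMM, filterByExpr with minimum count 10 and minimum total 15, two-sided quasi-likelihood F test, FAP minus control, no covariate), with Benjamini-Hochberg adjustment over 13373 genes and calls at 0.05. Standard errors were derived from the fold change and its F statistic, and replicate variation was 11.8% (common coefficient). Fits were also run on simulated counts with the same replicate variation for every gene and no library that stood apart, unlike these data. Alternatives used DESeq2 1.42.0, limma 3.58.1 (voom), other scalings and filters, thinned counts, a replicate block and each library left out.

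The genes and lists were chosen with earlier results of these data known. Named genes were the synthases, overlapping genes and PUS10 neighbours (some given only by range), H/ACA and mitochondrial module genes, the 2 smallest p of each wider list, and the 5 genes most like PUS10 on each measure; head-to-head neighbours were added after values were seen. Of 50 listed genes of other tRNA modifications, 1 was not analysed here.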

Additional observations from a re-analysis of the deposited data

How the results depend on the processing

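PUS10 was positive under all 16 alternatives (log2 fold change 0.43 to 0.61). Leaving out each library gave 0.43 to 0.59, with adjusted p = 2.52e-04 to 0.352 and 1 to 0 of the 10 synthases called, and limma-voom gave 0.51 (adjusted p = 0.0545) with 0 called. The number of genes called was 30 as reported, 82 with DESeq2, 152 with no low-count filter, 19 with library totals only, 18 with counts thinned to the smallest library (21 in a second random draw added after seeing the data), and 3 to 248 without single libraries; the cause was not tested. Replicate numbers are shared between groups, but same-numbered libraries did not deviate together (correlations of deviations -0.004, 0.02 and -0.004; 1 of the 3 controls correlated best with its own number). With the replicate block PUS10 was at 0.52 (adjusted p = 0.0410) and 44 genes were called. Of 144 values for the other 9 synthases under alternatives, 12 changed sign and none was called. RPUSD4 was at 8.656e-04 with library totals and 0.0014 in the second thinned draw, and PUS1 was at -0.0039 in the first and 0.16 in the second. Without single libraries PUS1 ran from -0.024 to 0.16, PUS7 from -0.32 to 0.064, PUS7L from -0.19 to 0.050, TRUB2 from -0.065 to 0.13 and RPUSD4 from -0.16 to 0.029. Depth limits PEX13, with 68 to 221 counts, more than PUS10, with 452 to 1666.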
